A study of Saccharomyces cerevisiae with 4 samples.

Results

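The genes described here are 46 nuclear genes of budding yeast whose products run and regulate protein synthesis inside mitochondria. They were picked by name from a list of mitochondrial tRNA synthetases, translation factors, tRNA modifying enzymes, translational activators and RNA helicases, with ribosomal proteins left out, by a rule that uses no measured value. They make up 46 of the 6692 genes of the deposited table, of which 6664 are nuclear. By role there were 13 tRNA synthetases, 3 subunits of the glutaminyl-tRNA amidotransferase, 6 translation factors, 3 tRNA modifying enzymes, 17 translational activators and 4 RNA helicases or degradation factors. All 46 were annotated as mitochondrial in the deposited table, and 21 of the 22 with a recorded GFP localization were placed in the mitochondrion.

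The yeast mitochondrial genome encodes a handful of subunits of the respiratory chain and the ATP synthase, 1 protein of the mitochondrial ribosome, and the ribosomal RNAs and tRNAs used to make them. Nearly all the proteins needed to translate those messages are made on cytosolic ribosomes and imported, most of them behind a cleavable N-terminal presequence. Translation in yeast mitochondria is unusual in that single messages depend on their own nuclear-encoded activators, many of them bound to the inner membrane, and loss of most of these factors leaves cells unable to respire.

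Footprints came from Saccharomyces cerevisiae strain S288C in which the outer membrane protein Om45 was fused to mVenus and the biotin ligase BirA (om45::OM45-mVenus-BirA::HIS5). Both copies of the ribosomal protein Rpl16 carried the Avi peptide that BirA biotinylates (rpl16a::RPL16a-HA-TEV-AVI and rpl16b::RPL16b-HA-TEV-AVI), and the remaining alleles were leu2::pPGK1-BirA::LEU2, ura3Δ0, met15Δ0 and his3Δ1. All libraries shared this genotype, so the labels place another BirA, under the PGK1 promoter and not tied to Om45, in every one of them, and its part in the results was not tested. Cells in SD medium with 0.125 ng/ml biotin received a 2 min pulse of 10 nM biotin, after 2 min in 100 µg/ml cycloheximide, which halts elongating ribosomes on their messages, or without the drug, and streptavidin then isolated the biotinylated ribosomes (pulldown) from all ribosomes (input). This gave 4 groups of 1 library each, so no difference below has a replicate check and no p-value is given.

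The libraries held between 15704610 and 37466743 reads in nuclear genes. No reads fell in URA3 and at most 4 in MET17, the gene of the met15 deletion, and OM45 itself was enriched at 4.27 with and 2.26 without cycloheximide. Enrichment is the log2 ratio of pulldown over input, centred so that the median gene of each comparison is at 0, and a gene was counted as higher at 2-fold or more. On library totals that median gene lay at −0.73 with cycloheximide and −0.03 without it. Levels within a gene are given as CPM, its reads scaled to a common total of nuclear reads, before any centring. Intervals are at the 95% level and cover counting error only, because each group held 1 library. Reads were treated as independent although PCR copies of one molecule were not told apart, so the intervals may be too narrow. All 46 genes passed the minimum of 100 reads in each comparison. Footprint counts do not separate the number of messages from the number of ribosomes on each.

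With cycloheximide, 45 of the 46 genes were at least 2-fold higher in the pulldown, against 12.5% of all 5464 genes measured, and the median enrichment of the 46 was 2.99 against 0 for all genes. Of the 45, 37 reached 4-fold, beside 453 of all 5464 genes, and 23 reached 8-fold, a count not made over all genes. The intervals of all 45 lay wholly above 2-fold, which was likewise not counted over all genes. Enrichment ran from 0.60 for YGR102C, a subunit of the glutaminyl-tRNA amidotransferase, to 4.28 for TUF1, the elongation factor that brings aminoacyl-tRNA to the mitochondrial ribosome. Scaling to library totals in place of the median gene left 38 of the 46 at 2-fold or more, and turned the whole table from 682 genes higher and 11 lower to 499 higher and 880 lower. Reads of the 46 genes together made up 0.216% of nuclear reads in the input and 1.35% in the pulldown.

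Without cycloheximide, 32 of the 46 were at least 2-fold higher, against 6.39% of 5148 genes, with a median of 1.74 and a range from −0.088 for PET122 to 2.72 for SUV3. The intervals of 29 of the 32 lay wholly at 2-fold or more, a count not made over all genes. All 32 were also among the 45 higher with the drug, which makes 32 of 45 of that list and 32 of 32 of the other, and the remaining 13 of the 45 lay below 2-fold without cycloheximide. Over all nuclear genes measured in both conditions, 303 were higher in both, 365 with the drug only and 25 without it only. The joint share was 0.134% of nuclear reads in the input and 0.516% in the pulldown. The 14 genes below 2-fold were not spread evenly over the roles, and none was a synthetase or an RNA helicase or degradation factor. Among them were 9 of the 17 activators. The others were PET112 and YGR102C of the 3 amidotransferase subunits, MTO1 and SLM3 of the 3 modifiers, and the factor RRF1. For 9 genes the interval took in the median gene, namely CBP6, CBS1, MTO1, PET111, PET112, PET122, PET54, RRF1 and SOV1. Fewer reads stood behind these values, with a median half-width of the interval of 0.21 over the 46 genes against 0.11 with cycloheximide.

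**Figure D1:**
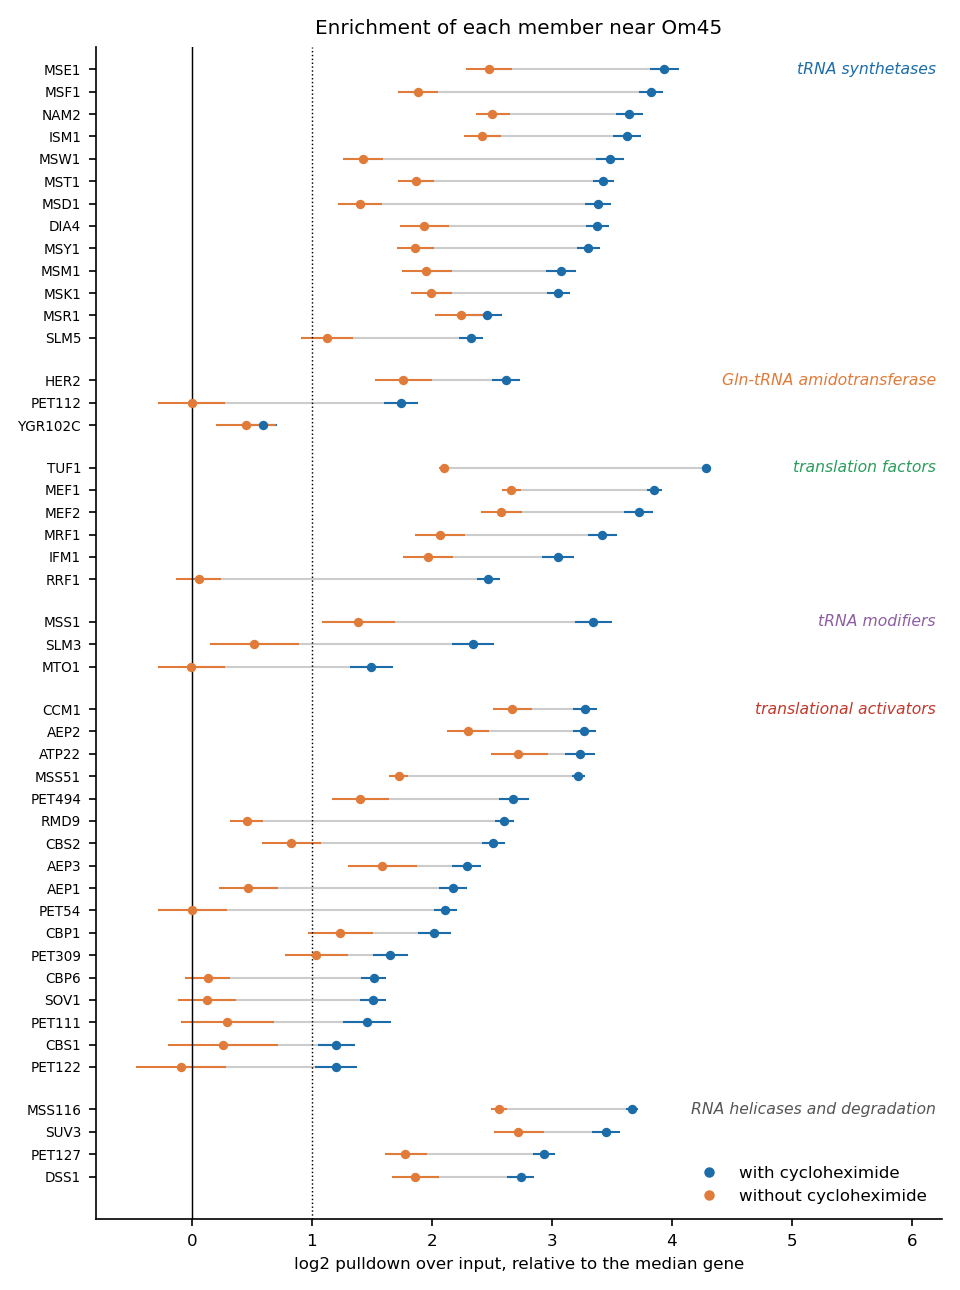
Enrichment of each of the 46 genes, as log2 of pulldown over input relative to the median gene, with cycloheximide (blue) and without it (orange), grouped by role. Bars are counting intervals at the 95% level, the solid line marks the median gene and the dotted line 2-fold. Each blue point lies to the right of its orange partner, with a wide gap for RRF1 (2.47 against 0.058) and a narrow one for YGR102C (0.60 against 0.45).

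The 13 tRNA synthetases, which charge mitochondrial tRNAs with their amino acids, were higher in the pulldown without exception in both conditions (13 of 13). Their median was 3.38 with cycloheximide and 1.94 without. The highest with the drug was the glutamate enzyme MSE1, which had input and pulldown CPM of 25.4 and 235 with cycloheximide, and of 14.6 and 79.6 without it. Its enrichment was 3.94 (interval 3.82 to 4.06) with and 2.47 (2.28 to 2.67) without cycloheximide, so both pulldowns held several times the share of MSE1 footprints in their inputs. The leucine enzyme NAM2, which also takes part in splicing of mitochondrial introns, had input and pulldown CPM of 29.8 and 226 with cycloheximide, and of 27.1 and 150.3 without it. It was the highest synthetase without the drug at 2.50 (2.36 to 2.65), beside 3.65 with it. The isoleucine enzyme ISM1 was close to it in both conditions, at 3.63 and 2.42.

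The asparagine enzyme SLM5 was the lowest synthetase in both conditions. It had input and pulldown CPM of 43.0 and 131 with cycloheximide, and of 14.7 and 31.3 without it, which gives 2.33 (2.23 to 2.43) with and 1.12 (0.91 to 1.34) without the drug, and its interval without the drug reached below 2-fold. The arginine enzyme MSR1 had the smallest difference between conditions among the synthetases, with input and pulldown CPM of 27.3 and 90.5 with cycloheximide, and of 12.2 and 56.5 without it. Its enrichment of 2.46 with and 2.24 without cycloheximide gave a centred difference of 0.17 whose interval, −0.071 to 0.42, included 0. The tryptophan enzyme MSW1 lay at the other end, with input and pulldown CPM of 30.4 and 206 with cycloheximide, and of 23.6 and 61.9 without it, and its difference was 2.01 (1.82 to 2.21). The enzymes for aspartate (MSD1) and phenylalanine (MSF1) also differed by more than 3-fold between conditions, at 1.94 and 1.90. The other synthetases, for lysine, methionine, threonine, tyrosine and serine (MSK1, MSM1, MST1, MSY1 and DIA4), ran from 3.05 to 3.43 with the drug and from 1.86 to 2.00 without it.

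Each of these enzymes has a counterpart for the same amino acid in the cytosol, made from another gene. The deposited table annotates 3 of the 14 counterparts, GUS1, YDR341C and THS1, as mitochondrial too, and all 3 lay below 2-fold in both conditions. In all 14 pairs, which count MSF1 against both FRS1 and FRS2, the mitochondrial enzyme was the more enriched with and without cycloheximide, by a median of 3.37 and 2.09. The cytosolic messages had far more footprints, with deposited RPKM in the input with cycloheximide 5.89 to 34.1 times that of the mitochondrial partner. Of the 14 cytosolic enzymes, 12 lay below 2-fold with the drug and 13 without, and their medians were −0.09 and −0.23. The exceptions were CDC60, the cytosolic leucine enzyme, at 2.48 with and 1.58 without cycloheximide, and ILS1, the cytosolic isoleucine enzyme, at 1.08 with and 0.59 without it. The narrowest pair was therefore NAM2 and CDC60, 1.17 apart with and 0.92 apart without the drug. CDC60 had MitoProt score 0.175, a prediction of a mitochondrial presequence that runs from 0 to 1, and ILS1 had 0.0284, whereas the lowest of the 13 mitochondrial synthetases was SLM5 at 0.518. YDR341C, the cytosolic arginine enzyme and the duplicate of MSR1 from the whole-genome duplication per the deposited table, had −0.30 and −0.35.

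**Figure D2:**
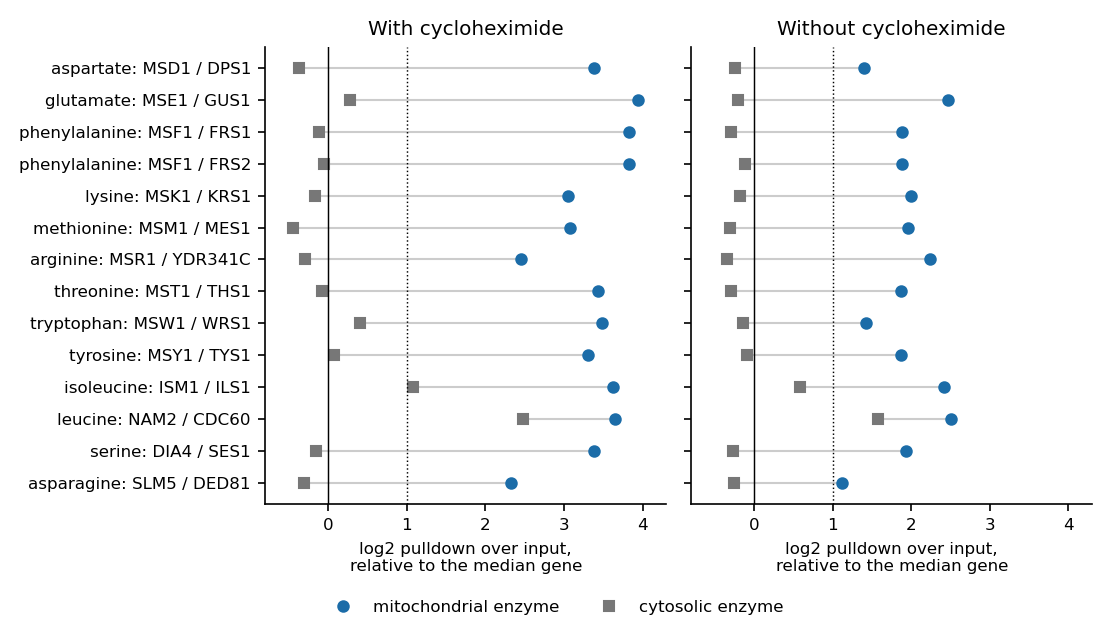
Enrichment (log2 of pulldown over input relative to the median gene) of 14 pairs of a mitochondrial tRNA synthetase (circles) and the cytosolic enzyme for the same amino acid (squares), with cycloheximide on the left and without on the right. The dotted line marks 2-fold. In every pair the circle lies to the right, by 1.17 to 3.94 with the drug and by 0.92 to 2.68 without.

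The glutaminyl-tRNA amidotransferase turns glutamate carried by the mitochondrial glutamine tRNA into glutamine, and its 3 subunits did not behave alike. HER2, the A subunit, had input and pulldown CPM of 31.7 and 118 with cycloheximide, and of 11.0 and 36.4 without it, and its enrichment was 2.62 (2.50 to 2.73) with and 1.76 (1.52 to 2.00) without the drug. PET112, the B subunit, had input and pulldown CPM of 24.5 and 49.6 with cycloheximide, and of 12.8 and 12.5 without it. It was enriched at 1.74 (1.60 to 1.88) with cycloheximide and lay at the median gene without it, at 0.0013 (−0.28 to 0.28). YGR102C (GTF1), the small F subunit found in yeasts, had input and pulldown CPM of 46.1 and 42.1 with cycloheximide, and of 13.5 and 18.0 without it. It was the one gene of the 46 below 2-fold in both conditions, at 0.60 (0.48 to 0.71) and 0.45 (0.20 to 0.70), although both intervals lay above the median gene. Its CPM with the drug was lower in the pulldown than in the input, so that on library totals its direction turned. With the drug the intervals of the 3 subunits did not overlap one another. These intervals cover counting error only and are narrow beside the spread of the 46 genes. Their median half-width was 0.11, and the standard deviation of the 46 values was 0.87.

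Of the 6 translation factors, 6 were higher with cycloheximide and 5 without, with medians of 3.57 and 2.08. TUF1 had input and pulldown CPM of 382 and 4490 with cycloheximide, and of 367 and 1537 without it, and its reads in the same order were 8615, 168211, 6677 and 24143. Its enrichment with the drug, 4.28 (4.25 to 4.31) or 19.4-fold, ranked 5 among all 5464 genes, and without it was 2.10 (2.06 to 2.14) or 4.28-fold, rank 57 of 5148. TUF1 alone held 0.449% of nuclear reads in the pulldown with cycloheximide, where all 46 genes held 1.35%. The translocase MEF1 had input and pulldown CPM of 99.1 and 866 with cycloheximide, and of 86.9 and 539 without it, and was enriched at 3.85 with and 2.66 without the drug. MEF2, a related GTPase that acts in ribosome recycling, followed closely at 3.72 and 2.58. The release factor MRF1 was at 3.42 and 2.06, and the initiation factor IFM1 at 3.05 and 1.96.

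RRF1, the ribosome recycling factor, was the exception among the factors. It had input and pulldown CPM of 44.1 and 148 with cycloheximide, and of 27.4 and 27.9 without it, from 994, 5537, 498 and 438 reads. In the drug-treated pair the pulldown was the higher library, with an enrichment of 2.47 (2.37 to 2.57), and in the untreated pair both libraries were level after centring, at 0.058 (−0.13 to 0.25). The centred difference of 2.37 (2.16 to 2.58), or 5.17-fold, was the largest of the 46.

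The tRNA modifiers act on the wobble uridine of a few mitochondrial tRNAs, MSS1 and MTO1 as partners in one modification and SLM3 as the enzyme that thiolates it. All 3 were higher with cycloheximide, at 3.34 for MSS1, 2.34 for SLM3 and 1.49 for MTO1, and 1 of 3, MSS1, was without it. MSS1 had input and pulldown CPM of 16.7 and 103 with cycloheximide, and of 7.32 and 18.7 without it, an enrichment of 1.38 (1.09 to 1.69) without the drug. Its partner MTO1 had input and pulldown CPM of 15.2 and 25.9 with cycloheximide, and of 12.9 and 12.6 without it, which left it at the median gene without the drug, at −0.0037 (−0.28 to 0.27). SLM3 had input and pulldown CPM of 14.2 and 43.7 with cycloheximide, and of 6.27 and 8.79 without it, or 0.52 (0.15 to 0.89) without the drug, above the median gene and below 2-fold. These are shallow values, since each of the 3 genes had between 114 and 235 reads in the input without cycloheximide. MTO1 overlaps the open reading frame YGL235W by 518 bases, and YGL235W held 27 reads in the input with cycloheximide, beside 342 of MTO1.

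The 17 translational activators and message-specific RNA factors were all higher with cycloheximide (17 of 17, median 2.18) and 8 of 17 were without it (median 0.82). Both medians lay below those of the synthetases, the factors and the RNA helicases and degradation factors. The amidotransferase subunits had lower medians still, 1.74 with and 0.45 without the drug, and the modifiers had 2.34 and 0.52. Within the activators the order of the genes was similar in the 2 conditions (Spearman's rho 0.84 over 17 genes, 0.81 over all 46 and 0.37 over the 13 synthetases, as a description of genes measured in the same libraries). The activators are described below by the mitochondrial message they serve.

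Of the activators of COX1, which encodes the largest subunit of cytochrome c oxidase, MSS51 had input and pulldown CPM of 140.2 and 789.8 with cycloheximide, and of 100.4 and 324 without it, an enrichment of 3.22 with and 1.72 without the drug. PET309, the other COX1 activator and a long pentatricopeptide repeat protein, was lower at 1.65 and 1.04, and its interval without the drug (0.78 to 1.30) crossed 2-fold. PET111, needed for COX2, was the shallowest of the 46 with 277 reads in the input with cycloheximide, and had 1.46 (1.26 to 1.66) and 0.29 (−0.094 to 0.68).

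The 3 proteins that act together on COX3 differed from one another. PET494 had input and pulldown CPM of 26.5 and 103 with cycloheximide, and of 11.7 and 30.2 without it, or 2.68 and 1.40. PET54 had input and pulldown CPM of 45.1 and 118 with cycloheximide, and of 12.2 and 12.0 without it. It was thus enriched with the drug at 2.11 (2.01 to 2.21) and level with the median gene without it at 0.0036 (−0.28 to 0.29), a centred difference of 2.07 (1.77 to 2.36). PET122 had the lowest value of the 46 without the drug, −0.088 (−0.47 to 0.29), and stood at 1.20 (1.03 to 1.37) with it.

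Of the factors for COB, the cytochrome b message, CBS2 was the highest with cycloheximide at 2.51 and had 0.82 without it. CBP1, which stabilises the message, was at 2.02 and 1.23, and was the one COB factor above 2-fold in both conditions. Its interval without the drug (0.96 to 1.51) crossed 2-fold. CBS1 and CBP6, which act on COB translation, were at 1.20 and 1.51 with the drug, and without it both intervals included the median gene. CBS1 had the fewest reads in the untreated pair, 82 in the input and 83 in the pulldown, and its enrichment there of 0.26 had an interval of −0.20 to 0.72, which lies wholly below 2-fold.

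Of the factors for the ATP synthase messages, AEP2 and ATP22 were among the 4 most enriched activators with the drug. AEP2, for OLI1 (the ring subunit of the enzyme), had input and pulldown CPM of 45.5 and 265 with cycloheximide, and of 18.3 and 88.0 without it, or 3.27 (3.18 to 3.37) and 2.30 (2.13 to 2.48). AEP1, for the same message, was at 2.18 with the drug and 0.47 (0.22 to 0.72) without it. ATP22, for ATP6, had input and pulldown CPM of 27.1 and 154 with cycloheximide, and of 9.52 and 61.5 without it, or 3.23 and 2.72. It was the second highest of the 46 without the drug, from 173 reads in that input. Its interval there (2.49 to 2.97) took in the values of several others of the 46, SUV3, CCM1 and MEF1 among them. AEP3, which stabilises the ATP6 and ATP8 transcript, was at 2.29 and 1.58.

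The remaining activators were CCM1, RMD9 and SOV1. CCM1, a pentatricopeptide repeat protein that stabilises the small ribosomal RNA, had input and pulldown CPM of 42.1 and 246 with cycloheximide, and of 19.9 and 124 without it, or 3.27 and 2.67. With the drug it was the highest activator by a margin within counting error, since AEP2 was also at 3.27 and their intervals overlapped. RMD9, which stabilises and delivers several mitochondrial messages, had input and pulldown CPM of 66.6 and 245 with cycloheximide, and of 45.7 and 61.4 without it. Its enrichment of 2.60 (2.53 to 2.69) with the drug and 0.46 (0.32 to 0.59) without it gave a centred difference of 2.11 (1.95 to 2.26), the third largest of the 46. YBR238C, the duplicate of RMD9 per the deposited table, lay below 2-fold in both conditions at 0.41 and 0.20. SOV1, needed for the VAR1 message, was at 1.51 and 0.13. The messages the activators serve are translated inside mitochondria, and the 8 of them held 194, 96, 74 and 168 reads in the 4 libraries (input and pulldown with the drug, then without), too few for a ratio per gene.

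The 4 RNA helicases and degradation factors were all higher in both conditions, with medians of 3.19 and 2.21. MSS116, a DEAD-box helicase for splicing and translation, had input and pulldown CPM of 153 and 1178 with cycloheximide, and of 114 and 658 without it, or 3.67 (3.62 to 3.72) and 2.56 (2.49 to 2.63). SUV3 and DSS1 form the mitochondrial degradosome, SUV3 as the helicase and DSS1 as the exonuclease. SUV3 had input and pulldown CPM of 28.2 and 186 with cycloheximide, and of 12.7 and 81.8 without it, or 3.45 (3.33 to 3.57) and 2.72 (2.52 to 2.93), whereas DSS1 had input and pulldown CPM of 33.2 and 134 with cycloheximide, and of 15.7 and 55.8 without it, or 2.74 (2.63 to 2.85) and 1.86 (1.67 to 2.06). The intervals of the 2 partners, which cover counting error only, did not overlap in either condition. PET127, which acts at the 5′ ends of mitochondrial messages, was at 2.93 and 1.78.

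The centred difference between the conditions was above 0 in all 46 genes, with a median of 1.20, and its interval included 0 in MSR1 and YGR102C only. Over all 5141 genes, 1571 of these intervals lay above 0 and 1414 below. The difference was 2-fold or more in 34 of the 46. The share was 9.57% of the 5141 genes measured in both conditions, and 37.0% of the 1026 other genes annotated as mitochondrial. After RRF1, the largest of the 46 were 2.14 for TUF1, 2.11 for RMD9, 2.07 for PET54 and 2.01 for MSW1. The smallest after YGR102C and MSR1 were 0.47 for ATP22, 0.56 for CCM1 and 0.57 for PET309, all of them activators. These values depend on the centring, since the median gene of the difference lay at −0.65 on library totals. On library totals 11 of the 46 reached 2-fold, their median was 0.55, and the whole table turned from 492 higher and 32 lower to 234 higher and 693 lower. The 11 were RRF1, TUF1, RMD9, PET54, MSW1, MSD1, MSS1, MSF1, SLM3, PET112 and AEP1, and on that scale 5 of the 46 were below 0.

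The same values were set beside other lists. Of the mitochondrial ribosomal proteins, 17 of 31 in the small subunit and 24 of 44 in the large subunit were higher with cycloheximide, and 4 of 31 and 11 of 44 without it. Their medians were 1.68 and 1.81 with the drug and 0.24 and 0.29 without, beside 2.99 and 1.74 for the 46 genes. The ribosomal proteins were shorter, with median lengths of 264 and 204.5 residues against 558. Their median RPKM in the input with cycloheximide was higher, at 89.0 and 108 against 17.5. The 6 of the 46 genes up to 300 residues had medians of 1.36 with and 0.096 without the drug. The part of length and level in these gaps was not tested. In the small subunit MRPS35 was highest at 3.58 and MRP2 lowest at −0.054 with cycloheximide, and in the large subunit RML2 at 4.13 and MRPL27 at −0.11. Another 24 genes of mitochondrial gene expression, such as the RNA polymerase RPO41, its partner MTF1 and the insertase OXA1, had 22 higher with and 13 without the drug, with medians of 2.80 and 1.08. The centred difference was 2-fold or more in 17 of the 31, 24 of the 44 and 20 of the 24 genes. Its medians in these lists were 1.27, 1.17 and 1.51, beside 1.20 for the 46 genes. Among the 4366 genes not annotated as mitochondrial, 95% lay below 0.89 with cycloheximide, and 45 of the 46 genes were above that value. Without it the same percentile over 4076 genes was 0.59, and 33 of the 46 were above it.

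**Figure D3:**
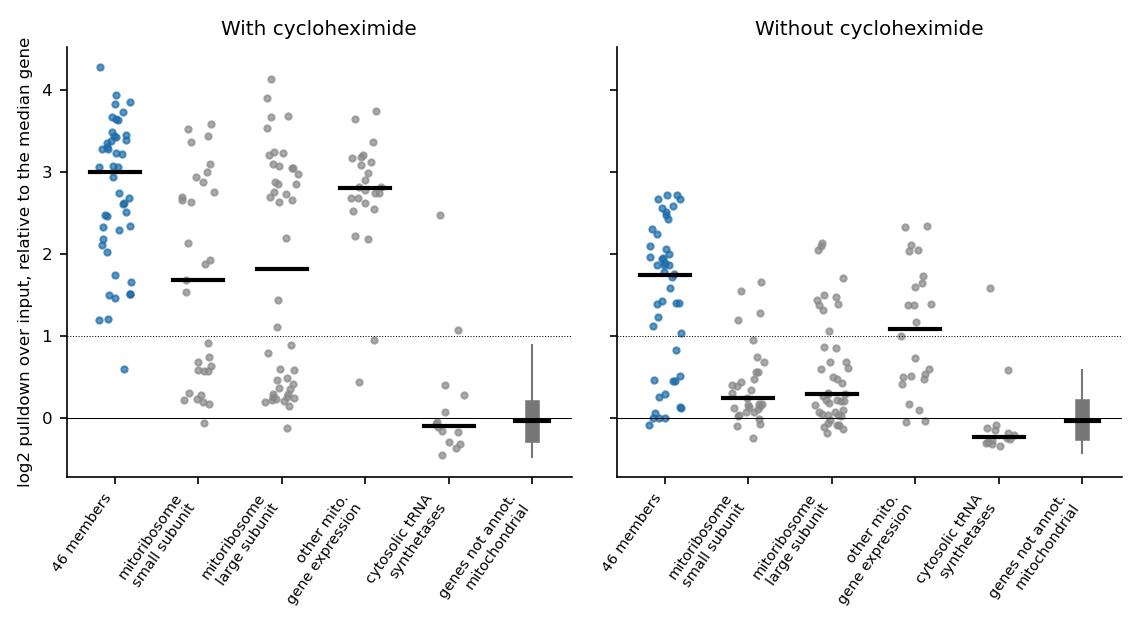
Enrichment (log2 of pulldown over input relative to the median gene) of the 46 genes beside 4 lists of other genes, with 1 point per gene and a bar at the median, and of the genes not annotated as mitochondrial, drawn as the 5th to 95th percentile (line), quartiles (box) and median. The 46 genes have medians of 2.99 with and 1.74 without cycloheximide, and the small subunit proteins 1.68 and 0.24.

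Protein length separated some of these values. The proteins ran from 162 residues (CBP6) to 1002 (ISM1). Of the 6 up to 300 residues, namely CBP6, CBS1, PET122, PET54, RRF1 and YGR102C, 5 were higher with cycloheximide and none without it. Of the 40 longer ones, 40 were higher with it and 32 without, and the 8 that were not were AEP1, CBS2, MTO1, PET111, PET112, RMD9, SLM3 and SOV1. Length was correlated with enrichment without the drug at a Spearman's rho of 0.43 over the 46 genes and 0.22 over the 40 longer ones, and with the drug at 0.21 and −0.10. The difference between conditions went the other way, at −0.42 over 46 and −0.54 over 40 genes. It subtracts the enrichment without the drug, so this correlation is not independent of that one. Over the other genes annotated as mitochondrial (1052 with and 1026 without the drug) the correlations with length were −0.08 and −0.09. For the difference the correlation was −0.0059 over 1026 of these genes. All of these are across genes, which share the libraries and are not independent replicates. The longest of the 8 were SOV1 with 898 residues, PET111 with 800 and MTO1 with 669.

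**Figure D4:**
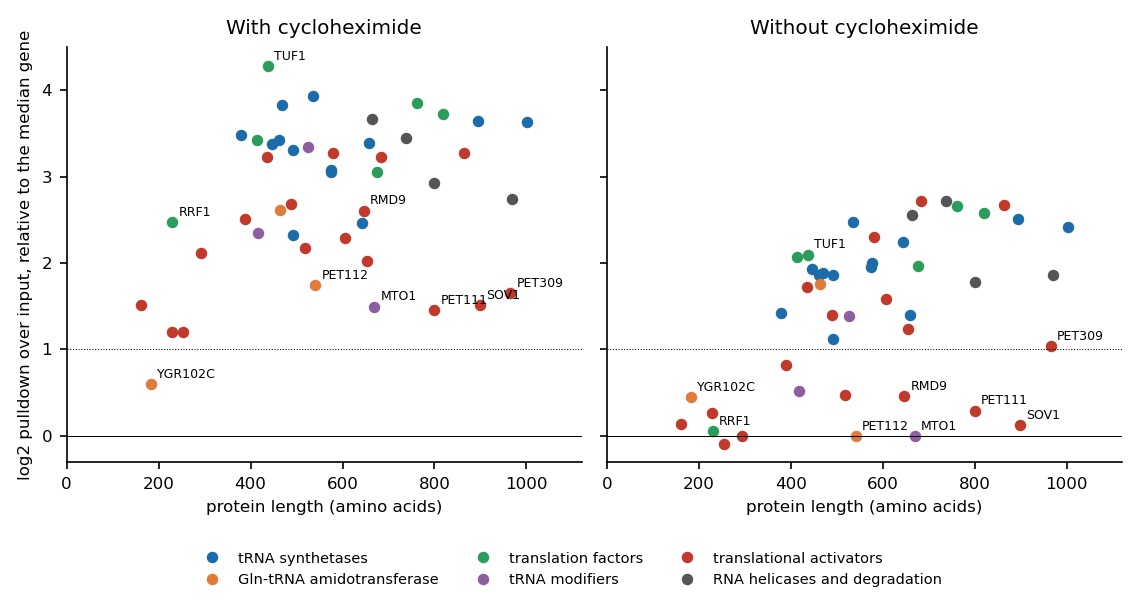
Enrichment (log2 of pulldown over input relative to the median gene) against protein length in amino acids for the 46 genes, coloured by role, with cycloheximide on the left and without on the right. The dotted line marks 2-fold. Without the drug the 6 genes up to 300 residues all lie below it, together with 8 longer ones.

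Nearly all of the proteins had a predicted presequence, with 44 of 46 at a MitoProt score of 0.5 or more in the deposited table. The share over all genes was not counted. The median score was 0.91 over the 46, 0.36 over the other genes annotated as mitochondrial and 0.11 over all nuclear genes. PET112 had 0.146 and PET54 0.486, and both lay at the median gene without cycloheximide. RRF1, with 0.995, and PET111, with 0.998, had high scores, and their intervals also took in the median gene without the drug. The score was correlated with enrichment at 0.18 with and 0.09 without cycloheximide over the 46 genes (Spearman's rho), and at 0.56 and 0.41 over the other genes annotated as mitochondrial. Within the 13 synthetases the values were 0.52 and 0.04, and within the 17 activators 0.15 and 0.40. By the compartment in the deposited table, 17 of the 46 were placed in the matrix and 10 in the inner membrane. The matrix genes had medians of 3.30 and 1.88 and the inner membrane genes 2.40 and 1.21, but 8 of the 10 inner membrane genes were activators.

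In the inputs, which report translation in the whole cell, the 46 had a median deposited footprint RPKM of 17.5 with cycloheximide against 31.8 for all nuclear genes. TUF1 was far above the rest at 252 with and 276 without the drug, followed with the drug by MSS51 at 92.7, CBP6 at 81.1, YGR102C at 72.3 and MSS116 at 66.6. The lowest was PET111 at 4.43 with and 2.53 without. Relative to the median gene, 5 of the 46 were 2-fold or more higher in the input with cycloheximide than in the input without it, against 10.6% of 5380 genes, and 0 were lower, against 10.4%. The 5 were CBS1 at 1.55, AEP3 at 1.25, PET54 at 1.14, CBS2 at 1.04 and YGR102C at 1.03, and 4 of them are activators. A share of 5 in 46 is close to the share of all genes. The lowest were TUF1 at −0.68 and NAM2 at −0.60, and of the 46 intervals 25 lay above 0 and 10 below. Intervals off 0 were common in the whole table, with 2197 of the 5380 genes above it and 2321 below. The median over the 46 was 0.35, beside −1.13 for the 14 cytosolic synthetases. These values too rest on the centring, since the median gene lay at 0.74 on library totals. On that scale 25 of the 46 were higher and the whole table turned from 568 higher and 560 lower to 1875 higher and 115 lower.

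**Figure D5:**
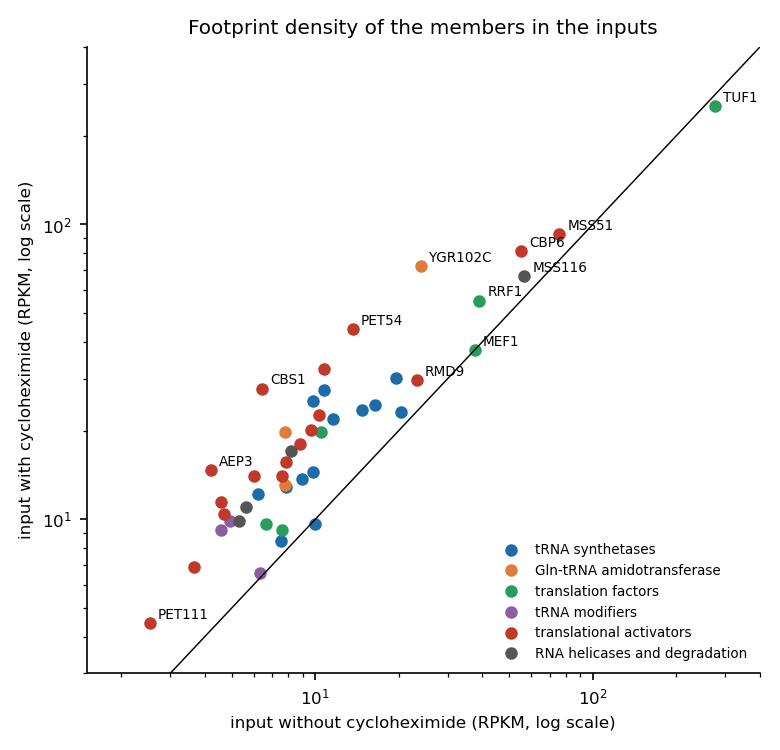
Deposited RPKM of the 46 genes in the input with cycloheximide (vertical) against the input without it (horizontal), both on log scales, coloured by role. On the line the 2 are equal. TUF1, at 252 and 276, stands above the others, and CBS1, AEP3, PET54, CBS2 and YGR102C lie furthest above the line.

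The authors' deposited table calls a gene enriched past a threshold on its log2 value that was set apart for each condition. By the authors' deposited table, 34 of the 46 were called enriched with cycloheximide, against 7.58% of 5329 genes with a call, and 29 of the 45 with a call were without it, against 4.52% of 4929. With the drug the authors' deposited table called all 13 synthetases, all 6 factors, all 4 RNA helicases and degradation factors, 2 of 3 modifiers, 1 of 3 amidotransferase subunits and 8 of 17 activators. Of the members nearest the threshold with the drug, AEP3 was called at 1.68 and AEP1 was not at 1.57 in the authors' deposited table. Without the drug MSS1 was called at 1.36 and CBP1 was not at 1.21 in the authors' deposited table. The lowest called value among all genes of the authors' deposited table was 1.58 with and 1.24 without the drug, before centring, and genes such as PET54 and CBP6, higher with cycloheximide by the 2-fold rule, lay under it.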

How the data were processed

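Ribosome footprints were sequenced in 4 libraries of 1 strain, grouped by sample title into input and pulldown with and without cycloheximide. Per the file headers, the values deposited for each gene are raw counts of mapped reads, RPKM and the authors' log2 enrichment (pulldown RPKM over input RPKM), with calls of enrichment from a ROC threshold, a MitoProt score for a presequence, and protein length in amino acids. Per the submitters' processing notes, CASAVA and genome build sacCer3 were used. Not given in the sources used here are the aligner, the strand setting and how multiply mapping reads were treated. A further 5 columns of values belong to another fusion and were not used.

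The 46 genes and all gene lists were chosen with earlier results of these data known. The named genes are all 46, the cytosolic counterparts of the synthetases, the messages served by the activators and the extreme members of the comparison lists. The whole-genome duplicates YBR238C and YDR341C and the named examples of other mitochondrial gene expression were added after their values were seen. All 46 were found in the reference gene table (assembly R64), which held 6008 of the identifiers, and no member shared all its counts with another gene.

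Each library was scaled to its reads in nuclear genes, and CPM are on that scale. A pseudocount of 0.5 reads was added, genes with at least 100 reads over the libraries of a comparison were kept (in each condition for the difference), and values were centred on the median gene. Ratios carry exact Clopper-Pearson intervals computed from both counts, and the difference an interval from the normal approximation to log counts. The difference shares its libraries with both enrichments, and the ratio of the inputs shares the inputs. The procedure was tested on simulated data that carried counting error only. That test does not cover PCR copies or the spread between cultures. Alternatives were library totals, TMM factors, a pseudocount of 1, minimums of 20 and 500 reads, folds of 1.5 and 4, the authors' deposited values, Pearson's correlation, and, chosen after seeing the data, only members over 300 residues. Software was edgeR 4.0.16 in R 4.3.3 (TMM factors only) and, in Python 3.11.15, matplotlib 3.10.9, scipy 1.17.1, pandas 2.3.3 and numpy 2.4.6. No protein, promoter or transcript sequence was analysed here.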

Additional observations from a re-analysis of the deposited data

How the results depend on the processing

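On library totals the median enrichment of the 46 genes was 2.26 with cycloheximide, the median difference 0.55 with 11 genes at 2-fold or more, and the median ratio of the inputs 1.09 with 25 genes higher. With a fold of 4 in place of 2, 13 of the 46 were higher without cycloheximide (76 of all 5148 genes), 5 in the difference (143 of 5141) and 0 in the inputs (178 of 5380). With a fold of 1.5, 11 were higher and 2 lower in the inputs, beside 1122 and 1176 of all 5380 genes, and with TMM factors 3 were higher there, beside 525. Among members over 300 residues only, an alternative chosen after seeing the data, the correlation of length was −0.10 with enrichment with the drug, 0.22 without it and −0.54 with the difference. The correlation of the MitoProt score was 0.28 by Pearson with enrichment without the drug and 0.22 with the difference at a minimum of 500 reads. Of 90 recomputed values the other 74 moved by less than the limits set for them (counts by up to 1.5 times). The sign changed in the correlation of length with enrichment with the drug, reported at 0.21, and in that of the MitoProt score with the difference, 0.057 by Spearman and −0.023 by Pearson. No value of a single gene at 2-fold or more changed sign. The search for the Puf3 motif after the stop codons, and its 2 alternatives, were not run because no genome was used. Replicates could not be left out, since each group held 1 library, so the spread between cultures is unknown. Depth limits the untreated pair most, where CBS1 had 82 and 83 reads. No paired analysis was possible because each group held 1 library.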
